A study of Mus musculus with 15 samples.

Results

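Cells answer misfolded protein by making chaperones, and 8 genes for the cytosolic part of that response were followed in mouse hearts: Hspa1a, Hspa1b, Hspb1, Hsph1, Dnajb1, Hsp90aa1, Hspa8 and Bag3. They were chosen by name with earlier results of these data known, and all 8 are among the 16658 genes of the deposited expression table. RNA was sequenced from hearts of male C57BL/6 mice of 8 to 10 weeks, taken with the infarcted part and the muscle around it. One group received activated protein C (aPC, an anticoagulant protease) at 1 mg/kg, given 30 min before the operation. Another received rivaroxaban, an inhibitor of coagulation factor Xa, at 3 mg/kg for 7 days, and a further group received dabigatran, an inhibitor of thrombin, at 10 mg/kg for 7 days. In the operation a ligature closed the left anterior descending coronary artery for 90 min, blood flow then returned for 24 h, and dosing resumed 2 h after surgery. The remaining groups carry the labels untreated and sham, and since the surgery is not described per group, whether untreated mice were operated on is not given. Values were analysed for 11 of the 15 samples, namely aPC-791 and aPC-792, Riva-313 and Riva-319 (rivaroxaban), Dabi-202 and Dabi-204 (dabigatran), untreated 17 and 19, and sham 003, 006 and 007; the other 4 samples were not analysed here. The labels number the libraries but do not state that each came from its own animal, so p-values measure the spread between these samples, which may be partly technical.

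The proteins made from these genes work as a relay. HSP70 proteins, with a J-domain partner that delivers clients and an exchange factor that resets them, bind exposed hydrophobic stretches and give the chain time to fold; HSP90 finishes many signalling proteins, and small heat shock proteins hold unfolded chains until HSP70 arrives. In resting cells heat shock factor 1 is held inactive by chaperones, and when damaged protein draws these away the factor binds elements built from inverted GAA repeats in front of the inducible members. The heart depends on this system because its sarcomere proteins are under constant mechanical load.

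Promoter sequence was found for 6 of the 8 genes in RefSeq (build GRCm38.p6), and the 250 bases upstream of each start were searched on both strands for a pair of facing GAA units, GAANNTTC or TTCNNGAA, which may overlap each other. Such a pair was present upstream of the RefSeq starts of Hspa1a, Hspa1b, Hspb1 and Hsph1 and was not matched upstream of those of Dnajb1 and Bag3. Of 32851 mouse promoters of the same length, 12.84% hold a pair. A match is a description of letters and not evidence of binding. The sequences of the 3 promoters upstream of the most variable members are printed 5′ to 3′ with the matched pair in capitals, because they show how alike the duplicated HSP70 genes are in front of their starts.
Hspa1a (chr17:34972157-34972406, minus strand): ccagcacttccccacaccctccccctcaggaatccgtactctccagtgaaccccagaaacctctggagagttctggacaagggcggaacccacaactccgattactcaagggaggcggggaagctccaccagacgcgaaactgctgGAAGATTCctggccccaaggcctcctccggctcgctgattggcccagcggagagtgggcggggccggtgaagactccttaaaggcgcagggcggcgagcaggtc
Hspa1b (chr17:34959239-34959488, minus strand): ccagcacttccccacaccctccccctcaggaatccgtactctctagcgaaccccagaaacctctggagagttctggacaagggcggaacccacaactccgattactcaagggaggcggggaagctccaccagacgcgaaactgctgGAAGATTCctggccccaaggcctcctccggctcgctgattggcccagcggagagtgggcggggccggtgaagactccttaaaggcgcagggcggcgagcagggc
Hspb1 (chr5:135887669-135887918, plus strand): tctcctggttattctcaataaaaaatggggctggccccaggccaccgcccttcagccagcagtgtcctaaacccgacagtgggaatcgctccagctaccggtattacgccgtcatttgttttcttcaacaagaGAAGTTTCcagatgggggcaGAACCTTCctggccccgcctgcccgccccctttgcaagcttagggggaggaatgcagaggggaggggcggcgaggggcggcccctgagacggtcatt
Hsph1, 30 bases around the pair (chr5:149636351-149636380, minus strand): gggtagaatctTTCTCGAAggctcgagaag

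The Hspa1a and Hspa1b stretches have the same base at 247 of 250 places, and in both the pair lies 96 bases from the start. Hspb1 holds 2 pairs, 109 and 89 bases from its start, and the Hsph1 pair lies 25 bases from its first listed start. In GENCODE M21 Hsph1 begins at 149636376 on the minus strand, so by that annotation its pair lies within the gene.

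Each value in the text is a log2 CPM, the logarithm of a gene's read count after the authors scaled it to library size by TMM (trimmed mean of M values), unless it is called a fold change. Reads on listed genes numbered 26203566 to 36135006 per library. Of the 16658 genes, 13541 passed a filter on low values (at least 0 log2 CPM in at least 3 libraries), all 8 chaperone genes among them; Hspa1a passed through 4 libraries only, both dabigatran libraries, untreated 19 and sham 007. A fold change is given with limma's standard error and was called at an adjusted p (limma, Benjamini-Hochberg over all genes tested) under 0.05; groups hold 2 libraries each, and sham holds 3. The heart label fits the markers of cardiomyocytes in that Myh6, the main motor protein of the mouse ventricle, measured 14.31 to 15.54 in every library. One predicted gene, Gm42418, took 6.78% and 6.73% of the reads in the aPC libraries and 0.997% to 2.09% in the others. In bulk tissue, fewer cells of a type and less RNA per cell cannot be told apart.

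Hspa1a, Hspa1b, Hspb1 and Hsp90aa1 were higher in both dabigatran libraries than in any other library. The share of all genes tested with that order is not given here, so the order alone is a description. In dabigatran against untreated hearts, 5 of the 8 genes rose and 0 fell, against 8.71% of all genes higher and 13.8% called in either direction: Hspa1a, Hspa1b, Hspb1, Hsph1 and Hsp90aa1. In dabigatran against sham hearts, 4 rose and 0 fell (11.7% of all genes higher, 18.5% called), the same names without Hsph1. Rivaroxaban hearts were lower than dabigatran hearts in 5 of 8 (14% of all genes lower, 23.3% called), and aPC hearts were lower than dabigatran hearts in 4 of 8 (12.3% of all genes lower, 21.5% called). These 4 comparisons share the dabigatran libraries and are not independent of one another. Hspa1a would not have passed the filter on low values without the dabigatran libraries, so its calls add no separate support. The median fold change over the 8 genes was 1.21 against untreated and 0.90 against sham, beside 0.05 and 0.01 over all genes tested; it was -1.57 for rivaroxaban against dabigatran and -1.26 for aPC against dabigatran, beside -0.003 and -0.05.

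**Figure D1:**
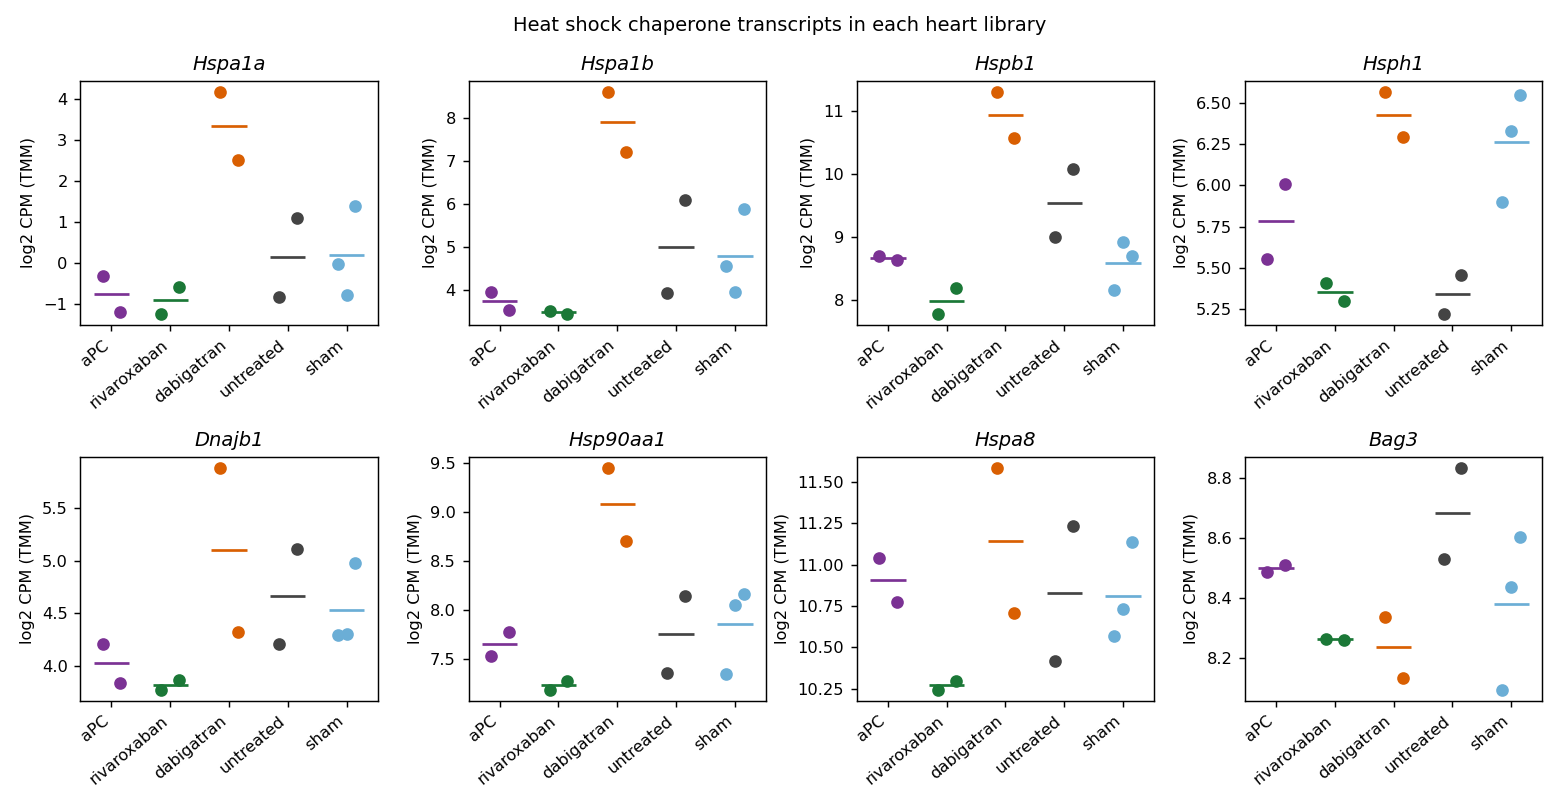
Level of each chaperone gene (log2 CPM after TMM normalization, vertical axis, with its own scale in each panel) in each library of the 5 groups; points are libraries and lines are group means. Both dabigatran points lie above every other library for Hspa1a, Hspa1b, Hspb1 and Hsp90aa1, and within every group but aPC and rivaroxaban the same library is high in most panels.

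Hspa1a and Hspa1b encode the stress-inducible cytosolic HSP70. Hspa1b (chromosome 17, 34956436 to 34959238, mm10) measured 3.95 and 3.52 in the aPC, 3.51 and 3.44 in the rivaroxaban, 8.61 and 7.22 in the dabigatran, 3.92 and 6.09 in the untreated, and 4.55, 3.95 and 5.89 in the sham libraries. Both dabigatran libraries lay above all others, untreated 19 and sham 007 followed them, and the remaining 7 libraries lay between 3.44 and 4.55. In reads, Riva-313 held 320 of Hspa1b and Dabi-202 held 10315. The fold change was 2.91 ± 0.73 for dabigatran against untreated (limma adjusted p = 0.0278) and 3.12 ± 0.67 against sham (limma adjusted p = 0.0121). It was -4.44 ± 0.73 for rivaroxaban against dabigatran (limma adjusted p = 0.00268) and -4.18 ± 0.73 for aPC against dabigatran (limma adjusted p = 0.00440).

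Hspa1a (chromosome 17, 34969190 to 34972156, mm10), the neighbouring copy, was read far less often. It measured -0.32 and -1.20 in the aPC, -1.25 and -0.58 in the rivaroxaban, 4.17 and 2.51 in the dabigatran, -0.84 and 1.10 in the untreated, and -0.03, -0.79 and 1.38 in the sham libraries. The order of the libraries followed that of Hspa1b closely, with both dabigatran libraries at the top. Its fold change was 3.21 ± 0.83 for dabigatran against untreated (limma adjusted p = 0.0310) and 3.15 ± 0.76 against sham (limma adjusted p = 0.0193). The longest open reading frames of the 2 genes are identical at 1918 of 1929 aligned bases, and 82.31% of the 50-base windows of the Hspa1a frame also occur in Hspa1b. Hspa1a took between 2.96% and 5.29% of the reads of the pair in each library. How the authors' counting split reads between the copies is not given in the sources used here, so the values of the 2 genes are not independent and the split is uncertain. Gm20481, annotated on the opposite strand across Hspa1a, adds to that uncertainty. With the reads of both genes added up as 1 gene, a choice made after seeing the data, the calls numbered 4 of 7 higher in dabigatran against untreated and 3 of 7 against sham.

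Hspb1, the small heat shock protein HSP25 of the mouse, binds actin filaments and unfolding proteins and is abundant in heart muscle. Hspb1 (chromosome 5, 135887919 to 135889563, mm10) measured 8.69 and 8.63 in the aPC, 7.77 and 8.18 in the rivaroxaban, 11.30 and 10.58 in the dabigatran, 9.0 and 10.08 in the untreated, and 8.16, 8.91 and 8.69 in the sham libraries. The groups stood in steps, with dabigatran above untreated, untreated above aPC and sham, and rivaroxaban lowest apart from 1 overlap with sham 003. Against sham the fold change of dabigatran was 2.35 ± 0.33 (limma adjusted p = 0.00197), which on the linear scale is 5.11 times the sham level. Against untreated it was 1.40 ± 0.36 (limma adjusted p = 0.0298). Rivaroxaban was lower than dabigatran by a fold change of -2.96 ± 0.36 (limma adjusted p = 0.000676) and aPC by -2.28 ± 0.36 (limma adjusted p = 0.00295). Hspb1 was also the 1 gene of the 8 that fell in rivaroxaban against untreated hearts, by -1.56 ± 0.36 (limma adjusted p = 0.0285), where 4.45% of all genes were lower and 8.47% called. That call was lost without untreated 19, Riva-313 or Riva-319, with library weights and in a fit of only these groups. In untreated against sham hearts its libraries did not overlap, but the fold change of 0.95 ± 0.33 did not pass (limma adjusted p = 0.0829); without untreated 17 it was 1.49 and passed (limma adjusted p = 0.00490).

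Hsp90aa1 encodes the inducible HSP90 alpha. It (chromosome 12, 110690605 to 110702728, mm10) measured 7.52 and 7.77 in the aPC, 7.18 and 7.27 in the rivaroxaban, 9.46 and 8.70 in the dabigatran, 7.35 and 8.15 in the untreated, and 7.34, 8.05 and 8.16 in the sham libraries. Both dabigatran libraries were above the rest, and the untreated and sham libraries covered the same span. The fold change was 1.33 ± 0.33 for dabigatran against untreated (limma adjusted p = 0.0266) and 1.23 ± 0.30 against sham (limma adjusted p = 0.0206). For rivaroxaban against dabigatran it was -1.86 ± 0.33 (limma adjusted p = 0.00378), and for aPC against dabigatran -1.43 ± 0.33 (limma adjusted p = 0.0136). Its constitutive relative Hsp90ab1, which carries the resting HSP90 supply, stayed between 10.56 and 10.84 over all 11 libraries and was not called in either comparison of dabigatran with untreated or sham; the 95% interval of its fold change reached from -0.07 to 0.51 against untreated.

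Hsph1 encodes HSP105, a large HSP70 relative that acts as an exchange factor and in disaggregation, and its groups stood in another order than those of Hspb1. Hsph1 (chromosome 5, 149614287 to 149636376, mm10) measured 5.55 and 6.01 in the aPC, 5.41 and 5.30 in the rivaroxaban, 6.56 and 6.29 in the dabigatran, 5.22 and 5.46 in the untreated, and 5.90, 6.33 and 6.55 in the sham libraries. Dabigatran and sham hearts overlapped at the top, and rivaroxaban and untreated hearts overlapped at the bottom. Hsph1 was the 1 gene of the 8 called in untreated against sham hearts, where 5.52% of all genes were lower and 10.6% called, with a fold change of -0.92 ± 0.20 (limma adjusted p = 0.0223). That call was lost without sham 006 or sham 007, with library weights and in a fit of only these groups. In dabigatran against untreated hearts its fold change was 1.09 ± 0.22 (limma adjusted p = 0.0124), and in dabigatran against sham hearts it was 0.17 ± 0.20 (limma adjusted p = 0.598, 95% interval -0.28 to 0.62). Rivaroxaban was lower than dabigatran by -1.07 ± 0.22 (limma adjusted p = 0.00794).

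**Figure D2:**
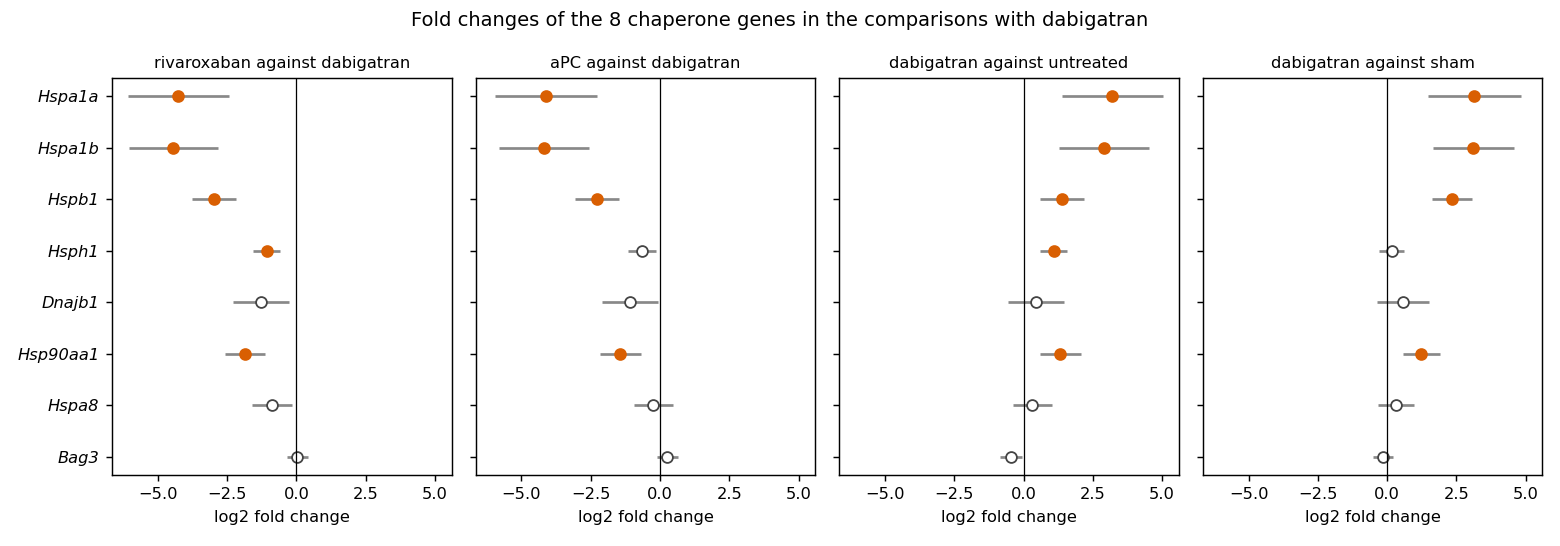
Log2 fold change of each chaperone gene (horizontal axis, log2 scale) in the 4 comparisons that hold dabigatran; points are limma estimates, lines their 95% intervals, and filled points passed an adjusted p of 0.05. Hspa1a, Hspa1b, Hspb1 and Hsp90aa1 are filled in all 4 panels, and Dnajb1, Hspa8 and Bag3 in none.

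Dnajb1, Hspa8 and Bag3 were not called in any of the 10 comparisons between groups. Dnajb1 (chromosome 8, 83608193 to 83612653, mm10), the HSP40 that delivers clients to HSP70, measured 4.21 and 3.84 in the aPC, 3.78 and 3.87 in the rivaroxaban, 5.88 and 4.32 in the dabigatran, 4.21 and 5.11 in the untreated, and 4.30, 4.31 and 4.98 in the sham libraries. Dabi-202 stood alone at the top, while Dabi-204 lay within the sham range. The fold change for dabigatran against untreated was 0.44 ± 0.46 (limma adjusted p = 0.534, 95% interval -0.57 to 1.46), and for rivaroxaban against dabigatran it was -1.28 ± 0.46 (limma adjusted p = 0.0681). Without Dabi-204 the fold change of rivaroxaban against dabigatran was -2.06 and passed (limma adjusted p = 0.00727), as did Dnajb1 in dabigatran against sham hearts and in aPC against dabigatran hearts.

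Hspa8, the constitutive HSP70 of the cytosol, was together with Hspb1 the most abundant of the 8 per length of transcript. It (chromosome 9, 40800984 to 40810087, mm10) measured 11.04 and 10.77 in the aPC, 10.24 and 10.30 in the rivaroxaban, 11.59 and 10.70 in the dabigatran, 10.42 and 11.24 in the untreated, and 10.57, 10.73 and 11.14 in the sham libraries. Rivaroxaban hearts were lowest and all other groups overlapped. The fold change of rivaroxaban against dabigatran was -0.87 ± 0.32 and missed the threshold (limma adjusted p = 0.0748; 0.0314 without untreated 17), and that of dabigatran against untreated was 0.32 ± 0.32 (limma adjusted p = 0.524). Per kilobase of transcript, Hspa8 ranged from 281.9 to 714.7 CPM and Hspb1 from 212.3 to 2453 CPM over the libraries. On that same level scale Hspa1b ranged from 3.85 to 139.4, Hsph1 from 5.13 to 13.0 and Dnajb1 from 4.25 to 18.4 CPM per kilobase.

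Bag3 couples HSP70 to selective autophagy of damaged sarcomere proteins and is an exchange factor itself. Bag3 (chromosome 7, 128523616 to 128546981, mm10) measured 8.49 and 8.51 in the aPC, 8.26 and 8.26 in the rivaroxaban, 8.34 and 8.13 in the dabigatran, 8.53 and 8.84 in the untreated, and 8.09, 8.44 and 8.60 in the sham libraries. It was the 1 gene of the 8 that lay lower in both dabigatran libraries than in both untreated libraries, with a fold change of -0.45 ± 0.17 that did not pass (limma adjusted p = 0.109). Without untreated 17 it was -0.60 and passed (limma adjusted p = 0.0362).

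Drug groups other than dabigatran showed few called differences in these genes. In aPC against untreated hearts, 0 of 8 were called by limma (17.6% of all genes called), with 1 at an unadjusted p under 0.05 and 0 by limma-voom on the recovered reads. Without untreated 17, more of the 8 genes were called lower in aPC and in rivaroxaban against untreated. Calls lower than untreated also rose over the wider chaperone lists in that fit, so the rise is not particular to the 8 genes. The counts were 0 of 8 for rivaroxaban against sham (0% of all genes called, with 761 genes and 1 member at an unadjusted p under 0.05), 0 of 8 for aPC against sham (1.17% of all genes, 1 member) and 0 of 8 for aPC against rivaroxaban (1.54% of all genes, 0 members), and limma-voom called 0 members in each. The median fold change of the 8 genes was -0.67 for rivaroxaban against sham, with 0 of 8 above 0, beside -0.01 over all genes tested. It was -0.34 for aPC against sham, with 3 of 8 above 0, and 0.34 for aPC against rivaroxaban, with 8 of 8 above 0. For rivaroxaban against untreated the median was -0.70, with 1 of 8 above 0, beside 0.02 over all genes tested. For aPC against untreated the median was -0.41, with 2 of 8 above 0, beside 0.07. Standard errors of these fold changes reached 0.83 for Hspa1a. In aPC against rivaroxaban its 95% interval reached from -1.7 to 2.0, so differences within that span could not be resolved with 2 libraries a group. Over the 5 groups together, limma's F test called 5 of 8 (30.2% of all genes called). These were Hspb1 (adjusted p = 0.00252), Hspa1b (0.00914), Hsph1 (0.0108), Hsp90aa1 (0.0162) and Hspa1a (0.0173).

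In some groups, but not in all, libraries of the same group differed in these genes in a common direction. Dabi-202 lay above Dabi-204 in 8 of 8 genes, by between 0.20 for Bag3 and 1.66 for Hspa1a on the log2 scale, while 50.2% of all genes tested were higher in Dabi-202. Untreated 19 lay above untreated 17 in 8 of 8, by between 0.24 for Hsph1 and 2.17 for Hspa1b, beside 50.2% of all genes. Sham 007 lay above sham 003 in 8 of 8 and above sham 006 in 7 of 8, and sham 006 lay above sham 003 in 6 of 8. The aPC and rivaroxaban pairs differed less evenly, with aPC-792 above aPC-791 in 3 of 8 and Riva-319 above Riva-313 in 5 of 8. Over all 11 libraries Hspa1a spanned 5.42 on the log2 scale and Hspa1b 5.17, and 47 and 69 of the 13541 tested genes spanned more. These ranks are not separate results, because the values of the copies are not independent. Hspa1a is ranked among the tested genes only because its dabigatran libraries let it pass the filter. Hspb1 spanned 3.53, Hsp90aa1 2.27, Dnajb1 2.11, Hsph1 and Hspa8 1.34 each and Bag3 0.74, beside a median of 1.13 for all tested genes.

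Single libraries bore on the dabigatran calls. Without Dabi-202, 0 of 8 genes were called against untreated and 1 against sham (Hspb1); rivaroxaban against dabigatran kept 3 calls, without Hspa1a and Hsph1, and aPC against dabigatran kept 2, without Hspa1a and Hsp90aa1. Against untreated, 0 of 8 were also called with library weights and in a fit of only the dabigatran and untreated libraries. The weights were 0.242 for both untreated and 0.662 for both dabigatran libraries, so here they set groups apart and not single libraries. Without untreated 17, the calls of Hspa1a, Hspa1b, Hspb1 and Hsp90aa1 against untreated were lost and Hsph1 kept its call. Against sham, 2 of the 4 calls were lost without sham 003, those of Hspa1a and Hsp90aa1, and that of Hspa1a was lost without sham 006. The aPC comparison with dabigatran lost 2 of its 4 calls without aPC-792, those of Hspa1a and Hsp90aa1, and that of Hsp90aa1 without aPC-791. In rivaroxaban against dabigatran the call of Hspa1a was lost without Riva-313 and that of Hsph1 without Riva-319. Held under all 18 alternative settings were the higher Hspb1 of dabigatran against sham, the lower Hspa1b, Hspb1 and Hsp90aa1 of rivaroxaban against dabigatran, and the lower Hspa1b and Hspb1 of aPC against dabigatran.

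Markers of other cells also differed between the groups. Of the 12 neutrophil markers listed, 9 were tested, and 5 rose in dabigatran against untreated hearts, 9 rose in dabigatran against sham, 9 fell in rivaroxaban against dabigatran and 7 fell in aPC against dabigatran. Over the 11 neutrophil markers with values, tested or not, the summed level was 43.5 to 110.5 CPM in aPC, 18.4 to 42.8 in rivaroxaban, 595.5 to 1051 in dabigatran, 116 to 173 in untreated and 32.4 to 51.5 in sham hearts. Ly6g, which defines mouse neutrophils, was at the lowest value of the table in both rivaroxaban, 1 aPC and all 3 sham libraries and reached -0.09 log2 CPM in Dabi-202. Of 11 monocyte and macrophage markers, 9 rose in dabigatran against untreated hearts, and the sums were 762 to 815 CPM in aPC, 433 to 470 in rivaroxaban, 919.5 to 992 in dabigatran, 332 to 369 in untreated and 541 to 749 in sham hearts. The aPC and sham sums thus lay above those of untreated hearts. Atrial markers, 3 of 6 tested and 4 with values, summed over those 4 to 64.5 to 65.9 CPM in aPC, 43.9 to 62.8 in rivaroxaban, 241 to 283 in dabigatran, 60.7 to 110 in untreated and 55.4 to 117 in sham hearts. The 1 that rose in dabigatran against untreated hearts was Nppa, the atrial natriuretic peptide, which stressed ventricular muscle also makes, by 1.77 (limma adjusted p = 0.0136). The atrial light chain Myl4 measured 2.68 and 2.46 in dabigatran, against 2.45 and 2.84 in untreated hearts, and Myl7 was below -0.4 log2 CPM in every library. Cardiomyocyte markers, 9 of 11 tested, summed to 63376 to 64020 CPM in dabigatran, against 91492 to 116287 in untreated and 85852 to 105404 in sham hearts, and 3 fell in each comparison. Immediate-early genes, which also answer the handling of tissue, summed to 256 to 265 CPM in aPC, 334 to 384 in rivaroxaban, 498 to 882 in dabigatran, 618 to 672 in untreated and 297 to 536 in sham hearts. Of these 12 genes, 6 rose in dabigatran against sham, and 1 rose and 1 fell in dabigatran against untreated hearts. In rivaroxaban against dabigatran 6 fell, in aPC against dabigatran 11 fell, and in aPC against untreated 9 fell. The part of these markers in the chaperone differences was not tested.

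The wider chaperone network was read through 9 lists with 76 tested genes. They were chosen with earlier results of these data known and are described by counts. Of the 76, 14 rose and 2 fell in dabigatran against untreated hearts, 21.1% of the lists beside 13.8% of all genes, and 19 rose and 4 fell in dabigatran against sham, 30.3% beside 18.5%. In rivaroxaban against dabigatran 1 rose and 22 fell, 30.3% beside 23.3%, and in aPC against dabigatran 3 rose and 10 fell, 17.1% beside 21.5%. In untreated against sham hearts 6 rose and 3 fell, a share of 11.8% close to the 10.6% of all genes. In aPC against untreated 6 rose and 1 fell, and in rivaroxaban against untreated 1 rose and 1 fell, shares of 9.21% and 2.63% that lay below the 17.6% and 8.47% of all genes. Without Dabi-202, 1 rose and 1 fell in dabigatran against untreated, 1 rose and 0 fell in dabigatran against sham, 0 rose and 8 fell in rivaroxaban against dabigatran, and 3 rose and 1 fell in aPC against dabigatran. With each library centred on its median, 6 rose and 3 fell in dabigatran against untreated, and 9 rose and 4 fell in aPC against dabigatran. The counts against untreated were 0 for dabigatran, aPC and rivaroxaban with library weights and in fits of only the groups compared. The count was 0 by limma and by limma-voom in rivaroxaban against sham, aPC against sham and aPC against rivaroxaban, with 6, 11 and 25 of the 76 at an unadjusted p under 0.05. For aPC against rivaroxaban the count depended on the fit, with 27 higher and 2 lower with library weights. It was 18 higher and 3 lower in a fit of only these groups, and it also moved without untreated 17 or untreated 19. In aPC against sham 0 were higher and 2 lower without untreated 17 or untreated 19. With library weights, 5 were higher and 1 lower in aPC against sham, and 1 higher and 3 lower in rivaroxaban against sham. The shares of all genes called in these alternative fits are not given here, so these counts are not a result about the lists.

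The chaperonin ring that folds actin and tubulin, with prefoldin that hands it clients, showed the most calls. In dabigatran against untreated hearts 7 of 13 rose and 0 fell, with a median fold change of 0.54 beside 0.05 over all genes tested, and against sham 9 of 13 rose, with a median of 0.55 beside 0.01. Cct4 measured 7.75 and 7.39 in the dabigatran libraries, against 6.85 and 6.92 in the untreated and 7.03, 7.01 and 7.04 in the sham libraries, and its fold change against untreated was 0.69 ± 0.13 (limma adjusted p = 0.00928). Cct6a measured 7.46 and 7.00 in the dabigatran libraries, against 6.42 and 6.52 in the untreated and 6.14, 6.28 and 6.41 in the sham libraries, with a fold change against sham of 0.96 ± 0.15 (limma adjusted p = 0.00308). Neither gene overlapped between these groups. The count against untreated was 0 without Dabi-202 and 0 with library weights, and it was 4 of 13 when each library was centred on its median. Against sham it was 1 without Dabi-202 and 8 with centring.

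Of the HSP90 co-chaperones, 4 of 12 rose and 1 fell in dabigatran against untreated hearts, with a median of 0.20 beside 0.05. Stip1, the adaptor that links HSP70 to HSP90, measured 7.65 and 7.48 in the dabigatran, against 6.62 and 6.81 in the untreated libraries, and rose by 0.85 ± 0.14 (limma adjusted p = 0.00495). Ptges3, the p23 co-chaperone, rose by 0.64 ± 0.16 (limma adjusted p = 0.0249). The gene that fell was Fkbp5, a glucocorticoid-responsive co-chaperone, named here after its values were seen. It measured 7.32 and 5.67 in the dabigatran, 8.57 and 8.50 in the untreated, and 6.10, 5.37 and 6.21 in the sham libraries, and its fold change was -2.04 ± 0.60 against untreated (limma adjusted p = 0.0485). In untreated against sham hearts Fkbp5 rose by 2.64 ± 0.55 (limma adjusted p = 0.0181). With each library centred on its median, 2 rose and 1 fell, and with library weights 0 were called.

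Of 6 further small heat shock proteins, 3 rose in dabigatran against sham and 0 in dabigatran against untreated hearts, where 2 had an unadjusted p under 0.05 and limma-voom called 0. Cryab, the alpha B crystallin of heart muscle, measured 11.75 and 11.33 in the dabigatran, 10.70 and 11.30 in the untreated, and 10.55, 10.55 and 10.31 in the sham libraries. Its fold change against sham was 1.07 ± 0.20 (limma adjusted p = 0.00624), and the count of 3 was 1 with centring and 0 without Dabi-202. Among Bag3 partners, the sarcomere protein Flnc was the 1 of 6 that rose in dabigatran against untreated hearts, with levels of 12.03 and 11.81 in dabigatran, against 9.79 and 11.34 in untreated hearts and a fold change of 1.35 ± 0.40 (limma adjusted p = 0.0477). That call was lost with centring, with library weights, in a fit of only these groups and in each fit without Dabi-202, Riva-313, Riva-319, aPC-791, aPC-792, sham 003 or sham 006. Of Hsf1, Hsf2, Hsf4 and the binding protein Hsbp1, 0 were called by limma or limma-voom in dabigatran against untreated or sham hearts, with 1 and 0 at an unadjusted p under 0.05. Hsf1, the main transcription factor of the response, stayed between 5.12 and 5.67 over all libraries, and the 95% interval of its fold change against untreated reached from -0.28 to 0.49. Hsf1 is known to be controlled mainly through its protein. For the HSP70 family with exchange factors, 0 of 10 were called in dabigatran against untreated hearts, and 1 rose and 1 fell against sham. Among cytosolic J-domain proteins, 1 of 11 rose and 1 fell against untreated, and 1 rose against sham. Of mitochondrial chaperones, 1 of 7 rose against untreated and 0 were called against sham. Of ubiquitin and heat shock factor 1 targets outside the chaperones, 0 of 7 were called against untreated. Against sham, 2 of them rose and 1 fell.

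**Figure D3:**
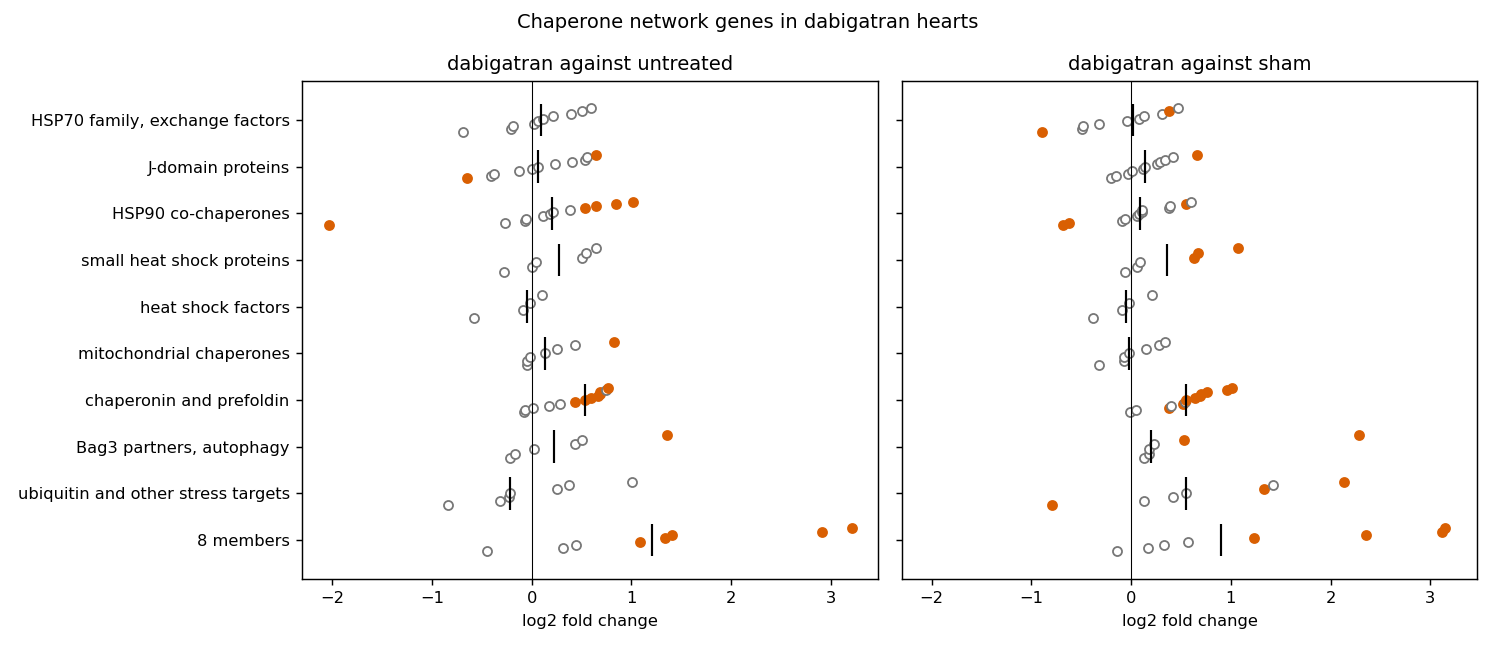
Log2 fold change (horizontal axis) of each tested gene of the 9 chaperone network lists and of the 8 chaperone genes, for dabigatran against untreated and against sham hearts; each point is a gene, black bars are medians, and filled points passed an adjusted p of 0.05. The chaperonin and prefoldin row has 7 of 13 points above 0.5 against untreated and 9 of 13 against sham, and in the row of heat shock factors Hsf4 lies at -0.58 against untreated and -0.38 against sham, unfilled in both panels.

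The tested genes with the profile most like each chaperone gene were found from the root mean square difference of log2 CPM over the 11 libraries, after each gene was centred on its mean. This is a description of likeness and has no test. For Hspa1b the nearest were Atf3 (0.51), Ctgf (0.64) and Asprv1 (0.67), and for Hspa1a they were Atf3 (0.56), Mefv (0.62) and Ctgf (0.71). Atf3 is among the immediate-early genes summed above. For Hspb1 they were Samsn1 (0.21), Ccl3 (0.24) and Uck2 (0.27), for Hsp90aa1 Enah (0.20), Phlda1 (0.21) and Ckap4 (0.21), and for Hsph1 P4ha1 (0.21), Ret (0.22) and Unc5b (0.23). Dnajb1 was nearest to Ier5 (0.22), as was the mean of the 8 genes (0.19), and Bag3 to Anxa11 (0.10). The root mean square of a gene around its own mean was 0.21 for Bag3 and 1.66 for Hspa1b. A smaller difference is therefore not by itself a closer likeness when chaperone genes are set side by side.

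Hspa8 had the closest neighbours of all, Nmbr at 0.04 and the predicted gene Gm26825 at 0.06. Nmbr, a receptor for neuromedin B (chromosome 10, 14705591 to 14770850, plus strand, mm10), held between 6.62% and 7.43% as many reads as Hspa8 in each library. Gm8355, a processed pseudogene of Hspa8 that shares 1079 of its 1892 windows of 50 bases with Hspa8, lies on the minus strand within the span of Nmbr, at 14745362 to 14747302. Gm26825 (chromosome 5) shares 1617 of its 1977 windows with Hspa8 and held between 1.59% and 1.79% as many reads. How reads that match several places were counted is not given in the sources used here, so the values of Nmbr and Gm26825 are uncertain, and the strand setting, which bears on Gm8355, is not given either.

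**Figure D4:**
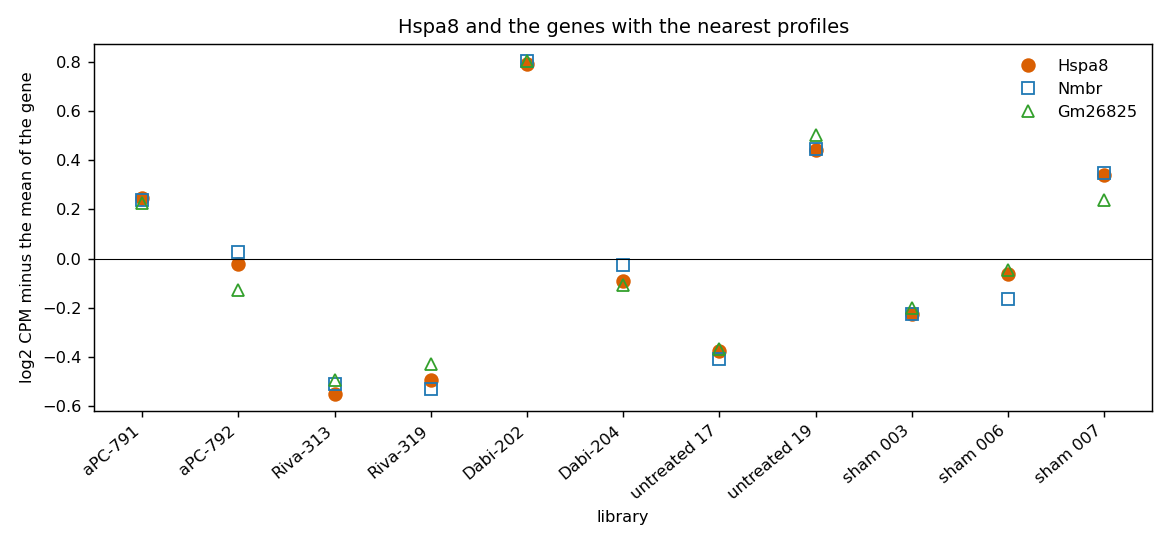
Log2 CPM of Hspa8, Nmbr and Gm26825 in each library (vertical axis), each centred on its mean over the 11 libraries. The 3 symbols lie close together in most libraries, from Riva-313 at the bottom to Dabi-202 at the top.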

How the data were processed

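RNA-seq of mouse heart was analysed in 11 libraries of 5 groups. The authors deposited log2 CPM values normalized by TMM. The submitters' processing notes name STAR, edgeR, Trim Galore, FastQC and bcl2fastq and build mm10, without versions. For the counter, annotation, strand setting and gene filter, the choice is not given in the sources used here. Per the labels, polyA RNA from 500 ng of total RNA went into a directional kit. Turned back to CPM, 100% of values were whole multiples of 1 read within 0.05 of a read. The test was two-sided limma-trend (limma 3.58.1, R 4.3.3) on the log2 values, with 1 fit of 5 group means, 10 comparisons and Benjamini-Hochberg adjustment over 13541 genes; it was tested on simulated data. The spread is shared by all groups. Count tests with edgeR or DESeq2 were planned for recovered reads and not run, because the deposited unit is log2. Of the 16658 identifiers, 16654 matched GENCODE M21, which gave positions, lengths and copies; promoters are from RefSeq. All 8 members are named whatever their values, with up to 2 genes of smallest p per list and the 3 nearest profiles. Members and lists were chosen with earlier results of these data known. Alternatives were no filter, median centring, a pseudocount of 1 CPM, library weights, fits of only the groups compared and leaving out each library; limma-voom and the summed Hspa1a and Hspa1b reads were added after seeing the data.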

Additional observations from a re-analysis of the deposited data

How the results depend on the processing

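No direction of a chaperone gene that passed the test reversed under any alternative. The calls numbered 0 with library weights for untreated against sham, rivaroxaban against untreated and dabigatran against untreated, 1 (lower) for rivaroxaban against sham and 1 (higher) for aPC against rivaroxaban. With only the groups compared in the fit, they numbered 0 for untreated against sham, rivaroxaban against untreated and dabigatran against untreated, and 2 (both higher) for aPC against rivaroxaban. Leaving out 1 library at a time, calls among the 8 genes ranged from 0 to 2 for untreated against sham, 0 to 4 for rivaroxaban against untreated, 0 to 5 for dabigatran against untreated, 0 to 2 for aPC against untreated, 1 to 5 for dabigatran against sham, 3 to 7 for rivaroxaban against dabigatran, 2 to 5 for aPC against dabigatran and 2 to 6 for any difference among the 5 groups. A lone library left in a group was assumed to vary like the other groups. Calls over the wider chaperone lists moved in these fits and with library weights too, so the counts are not a result particular to the 8 genes. Over all genes, dabigatran against untreated called between 656 and 4904 genes in those fits, beside 1868, and 125 with library weights. Centring libraries on their median shifted the median over all genes tested by -0.11 log2 units for dabigatran against untreated and by 0.13 for aPC against dabigatran, and kept the sign of every chaperone gene in these comparisons. The causes were not tested. The edgeR and DESeq2 fits were not run. No paired analysis was possible because the groups have no replicate numbers in common. With 2 or 3 libraries a group their number limits the precision, and for Hspa1a so do its 9 to 74 reads per library outside dabigatran hearts.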
